A study of Mus musculus with 10 samples.

Results

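Mitochondrial ribosomal protein genes were taken as all genes on the array whose symbol starts with Mrpl (large subunit) or Mrps (small subunit) followed by a digit, each represented by its probe set with the highest mean over the 10 arrays. The rule found 73 of the 17097 named genes, 46 with an Mrpl and 27 with an Mrps symbol. Expression was measured in spleen CD4+ T cells of DBA/1 mice, an inbred mouse strain, on Affymetrix mouse arrays in 4 groups: CD4+ cells of naive, non-injected mice (n = 2), and CD4+ (n = 2), CD49b+ (n = 3) and CD25+ (n = 3) cells of mice given immature dendritic cells. CD49b is the integrin alpha 2 chain and CD25 the interleukin 2 receptor alpha chain, a mark of conventional regulatory T cells. The injected mice received immature dendritic cells into the peritoneum on each of days 7, 5 and 3 before the spleens were collected. The labels name no genetic change and give no age. Each array held RNA of cells pooled from several mice. Nothing says that the pools behind replicate arrays were separate, so the p-values measure only how far these samples spread, and part or all of that spread may be technical. The comparison asked what distinguishes the CD49b+ cells, described by the series title as non-classical regulatory T cells, from CD25+ cells and from CD4+ cells of the same injected mice.

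The mitochondrial ribosome translates the few messages that mitochondrial DNA encodes, all of them for subunits of the respiratory chain and the ATP synthase. Its RNAs come from mitochondrial DNA, whereas every one of its proteins is encoded in the nucleus, made in the cytosol and imported. Part of these proteins have counterparts in the bacterial ribosome, and part are found only in mitochondrial ribosomes. T cells that leave the resting state enlarge their mitochondria and raise mitochondrial translation, and the subunit genes are often expressed together.

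RefSeq promoter windows, 250 bases before to 50 bases after the start of a gene, were found for 65 of the 73 members (build GRCm38.p6). The windows of 5 members named below are shown as examples that differ in the short elements they hold, and they do not represent the members. Mrpl33, Mrpl27, Mrpl43 and Mrps11 were higher in CD49b+ cells, and Mrps6 was the member that lay higher in CD25+ than in CD49b+ cells by the widest margin. Mrpl33 lies at chr5:31613701-31614000 on the plus strand, Mrpl27 at chr11:94653541-94653840 on the plus strand and Mrpl43 at chr19:45006393-45006692 on the minus strand. Mrps11 lies at chr7:78782881-78783180 on the plus strand and Mrps6 at chr16:92058086-92058385 on the plus strand. Capitals mark matches, on either strand, to CCGGAAG (core of the GABPA motif), GCGCATGC (core of the NRF1 motif) and AAGATGGC (core of the YY1 motif).
Mrpl33: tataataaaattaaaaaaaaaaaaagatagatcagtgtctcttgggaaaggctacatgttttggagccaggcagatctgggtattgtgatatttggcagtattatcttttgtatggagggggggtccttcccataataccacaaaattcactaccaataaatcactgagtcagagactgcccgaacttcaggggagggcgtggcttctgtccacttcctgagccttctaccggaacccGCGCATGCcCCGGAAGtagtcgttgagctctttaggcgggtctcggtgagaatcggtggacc
Mrpl27: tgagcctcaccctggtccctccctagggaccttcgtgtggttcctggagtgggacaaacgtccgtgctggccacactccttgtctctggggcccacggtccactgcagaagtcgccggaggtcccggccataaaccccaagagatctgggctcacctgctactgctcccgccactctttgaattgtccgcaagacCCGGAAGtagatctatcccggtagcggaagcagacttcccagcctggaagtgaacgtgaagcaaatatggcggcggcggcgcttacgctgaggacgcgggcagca
Mrpl43: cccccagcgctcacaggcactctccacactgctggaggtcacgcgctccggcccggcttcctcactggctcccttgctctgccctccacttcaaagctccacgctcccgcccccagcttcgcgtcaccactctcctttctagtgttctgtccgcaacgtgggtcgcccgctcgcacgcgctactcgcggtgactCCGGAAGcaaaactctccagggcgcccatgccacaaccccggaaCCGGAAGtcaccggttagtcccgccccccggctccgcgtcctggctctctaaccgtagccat
Mrps11: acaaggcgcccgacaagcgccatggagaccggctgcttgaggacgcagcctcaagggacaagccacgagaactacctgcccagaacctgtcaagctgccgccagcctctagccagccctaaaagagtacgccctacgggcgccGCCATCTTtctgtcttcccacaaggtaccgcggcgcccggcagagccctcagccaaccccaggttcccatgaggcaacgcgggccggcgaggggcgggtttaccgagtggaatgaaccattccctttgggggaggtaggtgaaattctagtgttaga
Mrps6: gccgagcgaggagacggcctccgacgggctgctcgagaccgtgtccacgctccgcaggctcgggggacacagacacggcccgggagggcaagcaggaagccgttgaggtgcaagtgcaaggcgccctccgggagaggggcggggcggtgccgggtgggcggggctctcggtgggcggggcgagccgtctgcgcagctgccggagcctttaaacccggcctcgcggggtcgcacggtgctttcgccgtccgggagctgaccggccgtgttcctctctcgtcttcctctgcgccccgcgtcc

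CCGGAAG, searched on both strands with its reverse complement CTTCCGG, was present in the windows of 23 of the 65 members (35.4%) and in those of 9.93% of 27025 genes. Of the windows shown, Mrpl27 held it in 1 copy, Mrpl43 in 2 copies and Mrpl33 in 1 copy next to GCGCATGC. AAGATGGC (reverse complement GCCATCTT) stood in the windows of 12 members (18.5%) against 3.19% of genes, Mrps11 among them. GCGCATGC (reverse complement GCATGCGC) stood in those of 7 members (10.8%) against 3.05% of genes. None of these 3 elements was in the Mrps6 window. TATAAA (reverse complement TTTATA) was in 7.69% of member windows and 15.7% of all, CACGTG (its own reverse complement) in 6.15% and 8.09%, and CCAAT (reverse complement ATTGG) in 41.5% and 41.1%. In 0 members did matches to CCGGAAG, GCGCATGC and AAGATGGC share a base. A match is a run of letters and says nothing of binding. These shares are descriptions with no test.

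Of the 73 members, 72 passed the filter on low values (at least 2 arrays above the 50th percentile of their own array), and all 72 lay above the median of every one of the 10 arrays. Mrpl47 was under the median on all of them and was not tested. The levels are deposited log2 values, in which a difference of 1 is a 2-fold difference, and levels of different probe sets are not compared with each other. Calls were made in a limma fit over 11037 genes, where the Benjamini-Hochberg adjusted p had to be under 0.05. Lower RNA per cell and fewer cells of a type within a sorted group cannot be told apart in such bulk samples.

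Some facts of the arrays bear on all results. The median of all probe sets lay at 4.79 to 4.81 on the 4 CD4+ arrays and at 4.61 to 4.65 on the 6 sorted subset arrays. Centring the arrays on these medians moved the median difference of all genes from 0.03 to 0.22 for CD49b+ against CD4+ cells and from 0.02 to 0.18 for CD25+ against CD4+ cells. The 3' minus 5' signal of Gapdh, a sign of RNA integrity, was -0.01 to 0.06 in naive, 0.13 to 0.26 in injected CD4+, 0.23 to 0.69 in CD49b+ and 0.37 to 0.60 in CD25+ arrays. Added poly-A control RNAs were brighter on replicate 3 of CD49b+ (7.23) and of CD25+ (7.04) than on the other arrays (4.81 to 5.86). The part of these differences in the results below was not tested. The sort was visible for CD25, whose gene Il2ra exceeded its CD4+ level by 4.66 in CD25+ cells, while Itga2, the gene of CD49b, showed a difference of -0.05 in CD49b+ against CD4+ cells that did not pass the test. Itga2 was 0.31 higher in CD49b+ than in CD25+ cells, a call lost on leaving out any of 6 arrays, and Il2ra exceeded its CD4+ level in CD49b+ cells too, by 2.12. CD4 T cell markers were bright in all groups (mean log2 level 10.2 to 10.6), but not equal between them. Of 6 tested, 3 were higher and 0 lower in CD49b+ against CD4+ cells of injected mice (median 0.22, 29.9% of all genes higher). In CD25+ against CD4+ cells 0 were higher and 1 lower. Between the subsets 4 were higher in CD49b+ cells and 0 lower (median 0.27, 17.5% of all genes higher). The part of this in the members' differences was not tested.

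The mitochondrial ribosomal protein genes were highest as a group in CD49b+ cells. The highest of the 4 group means was that of CD49b+ cells for 48 of the 72 tested members (66.7%, against 36% of all genes tested), and the lowest was that of CD4+ cells of injected mice for 45. The order CD49b+, CD25+, CD4+ of injected mice, from high to low, held for 43 members. For the 45 and the 43 the share of all genes is not given here, so they only describe the members. Relative to the naive arrays, the median member lay at 0.17, 0.29 and 0.15 on the 3 CD49b+ arrays, at -0.15, 0.19 and 0.07 on the CD25+ arrays and at -0.25 and -0.01 on the CD4+ arrays of injected mice. By this median all CD49b+ arrays lay above all 4 CD4+ arrays. The CD25+ arrays spread over a wider range, with replicate 2 within that of the CD49b+ arrays and replicate 1 below the naive ones. On the same scale all genes tested lay between -0.05 and 0.03 on every array.

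**Figure D1:**
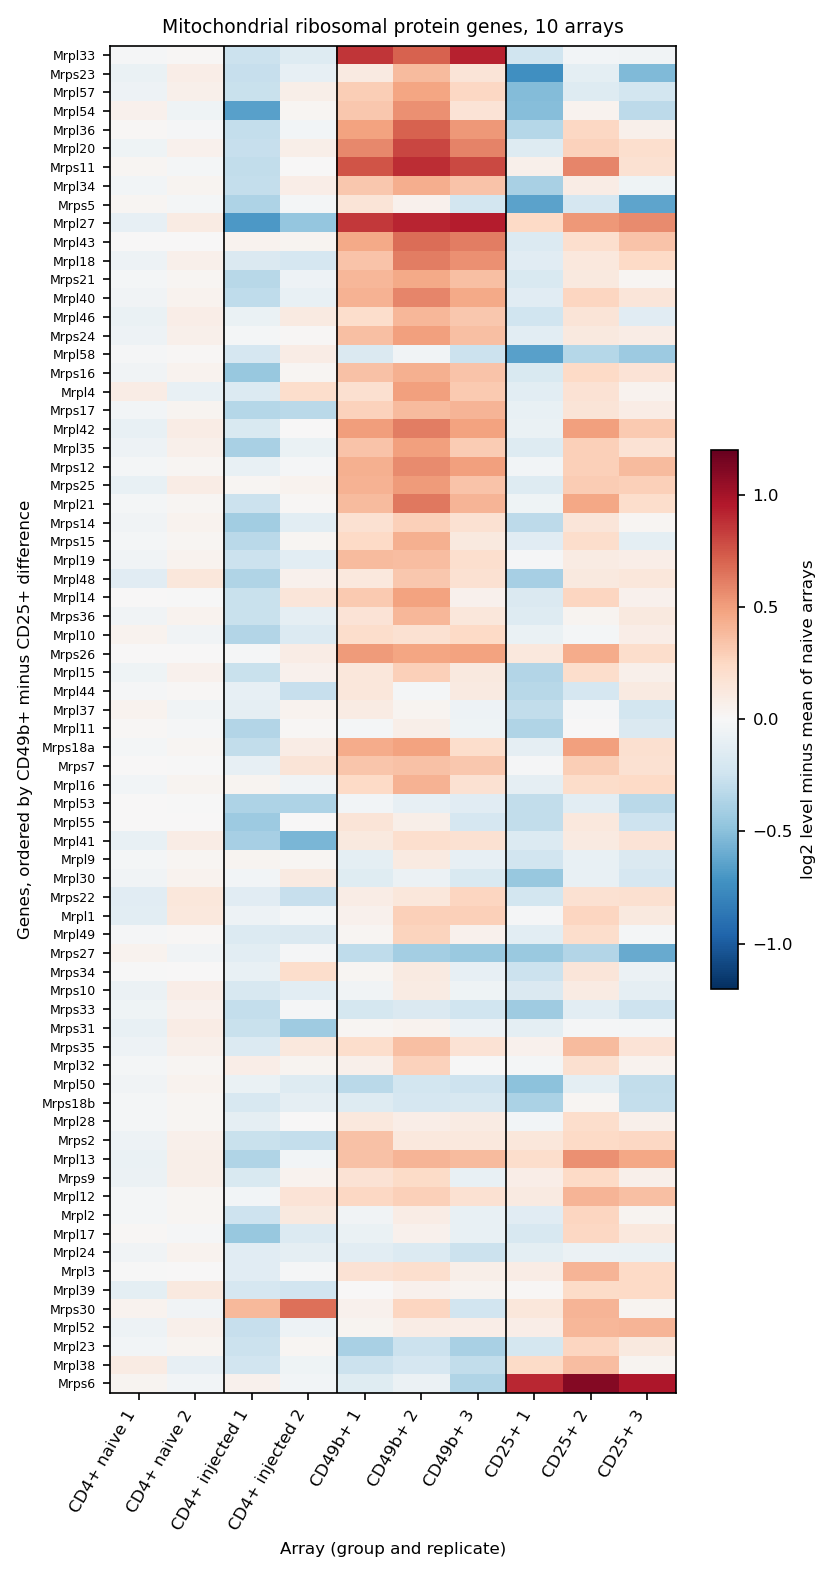
Log2 level of each of the 72 tested members on each of the 10 arrays, minus the mean of the naive arrays, as colour from blue (lower) to red (higher). Genes are ordered by the difference between CD49b+ and CD25+ cells, from Mrpl33 (0.93) at the top to Mrps6 (-1.19) at the bottom, and the columns of CD49b+ arrays are mostly red.

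The members shifted together between the arrays of a group. All 72 members were lower on CD25+ replicate 1 than on CD25+ replicate 2 (66.7% of all genes were), and 58 of 72 were lower on replicate 1 of the injected CD4+ arrays than on replicate 2 (59% of all genes). The median SD of a member between the CD25+ arrays was 0.189, against 0.124 for all genes, and that between the CD49b+ arrays was 0.0874, against 0.111. Subunits of the respiratory chain and the ATP synthase, 84 tested genes encoded in the nucleus, had medians of 0.24, 0.35 and 0.25 in CD49b+ and of -0.09, 0.21 and 0.17 in CD25+ arrays. Of them, 53 were higher and 4 lower in CD49b+, and 18 higher and 3 lower in CD25+ cells against CD4+ cells. Cytosolic ribosomal proteins, 69 tested genes, had medians between -0.12 and 0.01 on every array. In CD49b+ against CD4+ cells 2 of these were higher and 14 lower. With centred arrays 10 were higher and 0 lower, when 44.4% of all genes were higher.

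**Figure D2:**
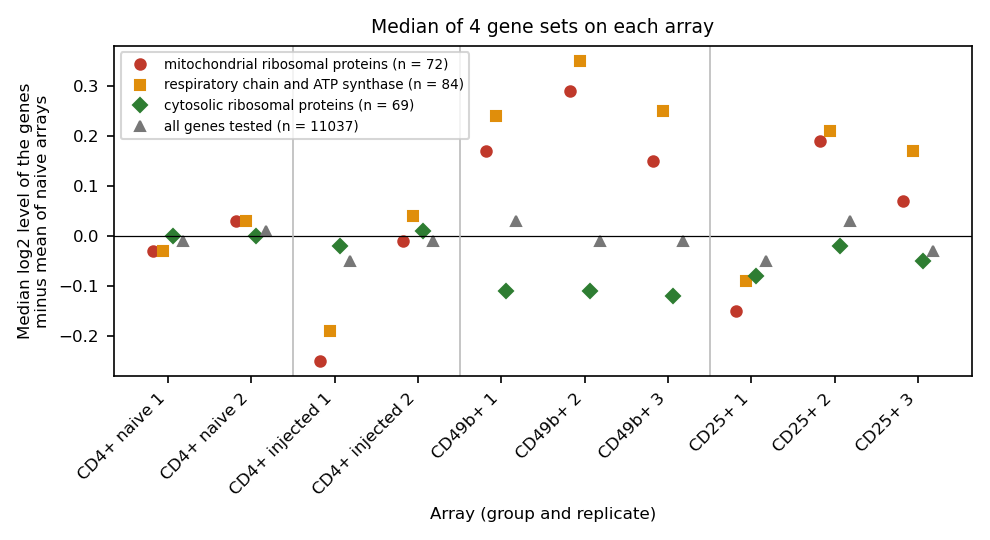
Median log2 level of 4 gene sets on each array, minus the mean of the naive arrays, for 72 mitochondrial ribosomal protein genes (circles), 84 respiratory chain and ATP synthase genes (squares), 69 cytosolic ribosomal protein genes (diamonds) and 11037 genes tested (triangles). Circles and squares are highest on CD49b+ replicate 2 (0.29 and 0.35), and the diamonds and triangles stay between -0.12 and 0.03.

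No member was called between CD4+ cells of injected and of naive mice, while 0.0272% of all genes tested were called higher, 1.36% lower and 1.39% either way. The median difference of the members was -0.13, against -0.03 for all genes, and 13 of 72 members had a difference above 0 (42.1% of all genes). Without injected replicate 1 the median was -0.01, and without injected replicate 2 it was -0.25. By unadjusted p, 8 members (11.1%) lay under 0.05, as did 12.4% of all genes. With array weights 3 members were called lower (4.17%, against 2.74% of all genes). The arrays of injected mice lay all below those of naive mice for 26 members (36.1% of members, 30% of all genes) and all above for 3 (18.6% of all genes). Mrpl27, whose protein sits near the peptidyl transferase centre of the large subunit, was 8.24 and 8.43 in naive and 7.65 and 7.87 in injected mice. Its difference of -0.58 ± 0.13 (SE) had the lowest p of the members and an adjusted p of 0.0734 in limma. Mrps30, a large subunit protein despite its symbol, went the other way, at 7.64 and 7.56 in naive and 7.99 and 8.26 in injected mice, with an adjusted p of 0.216 in limma.

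In CD49b+ cells against CD4+ cells of injected mice, 34 of the 72 members were higher and 2 lower. The test called 29.9% of all genes higher and 23.5% lower, so members were called higher more often (47.2%) and lower less often (2.78%) than genes at large. In either direction together, 50% of members and 53.4% of all genes were called. The CD49b+ arrays lay all above the CD4+ arrays of injected mice for 50 members (69.4%, against 37.3% of all genes) and all below for 6 (8.33%, against 33%). The median difference of the members was 0.31, against 0.03 for all genes, and 59 of 72 lay above 0 (52.3% of all genes). With the arrays centred on their medians, 54 members were higher and none lower (44.4% and 12.3% of all genes), and with quantile normalization 24 were higher and 3 lower. The share called higher under quantile normalization (33.3%) was near that of all genes (28.9%). Without injected replicate 1, which had the lowest member levels, 19 members were called higher, all of them among the 34. Their share of 26.4% was then near the 22.6% of all genes called higher. With the mean of all probe sets of each gene, 28 were higher (38.9%, against 28.5% of all genes) and 7 lower (9.72%, against 24.9%). Without replicate 3 of both subsets, 31 of 72 were higher and 1 lower, when 27.2% and 20.5% of all genes were. In all, 18 of the 34 kept their call whichever single array was left out.

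The members with the largest differences included several proteins with bacterial counterparts. Mrpl33, a small protein of the large subunit near the tRNA exit site, was 9.29 and 9.40 in injected CD4+, 10.41, 10.26 and 10.47 in CD49b+, 9.31, 9.52 and 9.51 in CD25+ and 9.54 and 9.56 in naive arrays. The CD49b+ arrays stood above all 7 others. The difference from CD4+ cells was 1.03 ± 0.10 (adjusted p 2.45e-05, limma). Mrpl27 was 9.18, 9.25 and 9.28 in CD49b+ and 8.57, 8.86 and 8.90 in CD25+ arrays, both groups entirely above the 4 CD4+ arrays. Its difference from CD4+ of injected mice was 1.48 ± 0.12 in CD49b+ cells (adjusted p 9.67e-06, limma), the largest of any member. A dimmer probe set of Mrpl27 gave 0.97 ± 0.13 in CD49b+ and 0.36 ± 0.13 in CD25+ cells, the first called and the second not.

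Mrps11, a protein of the small subunit platform, was 6.19 and 6.49 in injected CD4+, 7.24, 7.37 and 7.28 in CD49b+ and 6.55, 7.07 and 6.67 in CD25+ arrays. The CD49b+ arrays lay above all others, and the difference from CD4+ cells was 0.96 ± 0.15 (adjusted p 0.000522, limma). Mrpl20, whose bacterial counterpart binds early in large subunit assembly, was 7.90 and 8.25 in injected CD4+ and 8.76, 8.98 and 8.78 in CD49b+ arrays, a difference of 0.77 ± 0.15. The other members of the 10 highest were Mrpl36 (0.73 ± 0.16), Mrpl18 (0.69 ± 0.12), Mrps17 (0.69 ± 0.09), Mrpl40 (0.68 ± 0.12), Mrpl54 (0.66 ± 0.21) and Mrpl41 (0.64 ± 0.11). All of these except Mrpl54 kept their call with each array left out. Without injected replicate 1 the difference of Mrpl54 was 0.32 with an adjusted p of 0.253 in limma, and without CD49b+ replicate 2 it was 0.56 with 0.0726. The mean of its probe sets gave 0.27 with 0.144.

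**Figure D3:**
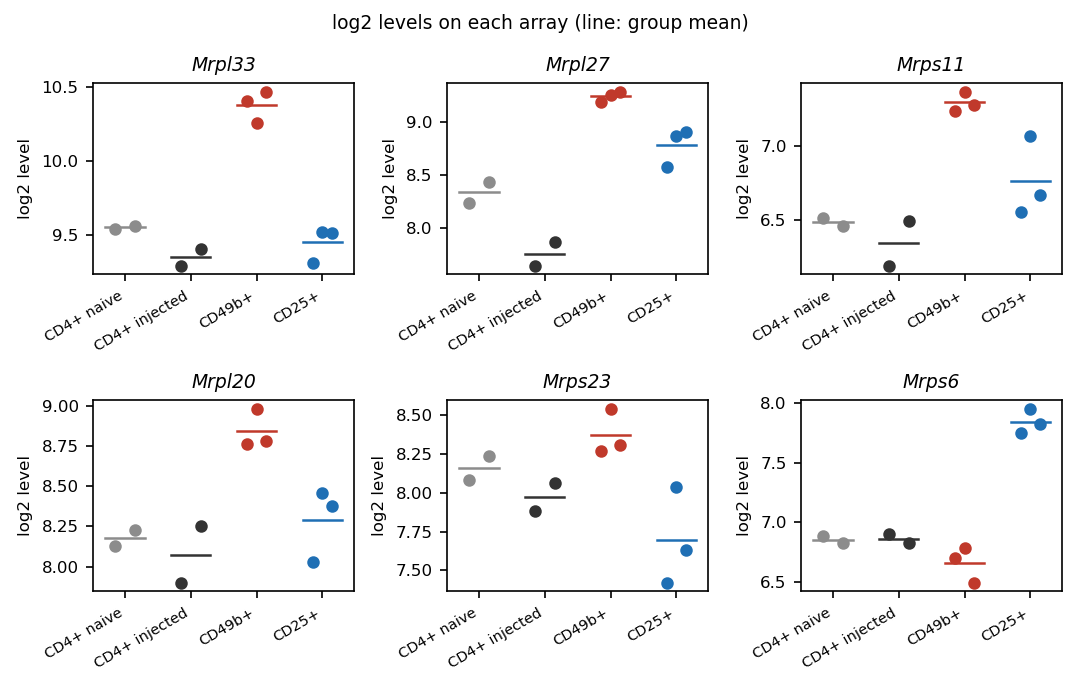
Log2 level on each array, with the group mean as a line, for Mrpl33, Mrpl27, Mrps11, Mrpl20, Mrps23 and Mrps6 in CD4+ cells of naive (n = 2) and injected mice (n = 2), CD49b+ (n = 3) and CD25+ cells (n = 3). CD49b+ arrays are highest for the first 4 genes, and CD25+ arrays are highest for Mrps6, at 7.75 to 7.95.

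The members called lower in CD49b+ cells were Mrps27 and Mrps30. Mrps27, a pentatricopeptide repeat protein of the small subunit, was 5.44 and 5.55 in injected CD4+ and 5.26, 5.16 and 5.12 in CD49b+ arrays, which did not overlap, and the difference was -0.31 ± 0.09 (adjusted p 0.0202, limma). Mrps30 was 7.99 and 8.26 in injected CD4+ and 7.65, 7.86 and 7.37 in CD49b+ arrays, which lay all below, with a difference of -0.50 ± 0.16. Neither call held without injected replicate 2 (adjusted p 0.128 and 0.163) or without CD49b+ replicate 3 (0.0577 and 0.0649), and neither held with centred arrays (adjusted p 0.312 and 0.119, limma). That of Mrps27 was also lost under quantile normalization (0.175).

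By class, 10 of 14 small subunit proteins with a bacterial counterpart were higher in CD49b+ cells and none lower, with a median difference of 0.44. Among 10 small subunit proteins found only in mitochondria 4 were higher and 1 lower (median 0.31), among 27 large subunit proteins with a bacterial counterpart 11 were higher and none lower (median 0.29), and among 20 large subunit proteins found only in mitochondria 8 were higher and 1 lower (median 0.28). Mrps36 was in no class. Whether the classes differ was not tested. Some members passed the test in no comparison, and those with the smallest differences in CD49b+ against CD4+ cells were taken for each subunit. They were Mrpl32, Mrpl2 and Mrpl24 of the large and Mrps34, Mrps33 and Mrps18b of the small subunit. Over all 4 group means other uncalled members varied less, such as Mrps10 (range 0.16) compared with Mrps33 (0.27). In CD49b+ against CD4+ cells Mrpl32 differed by 0.06 and Mrpl2 by 0.05.

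**Figure D4:**
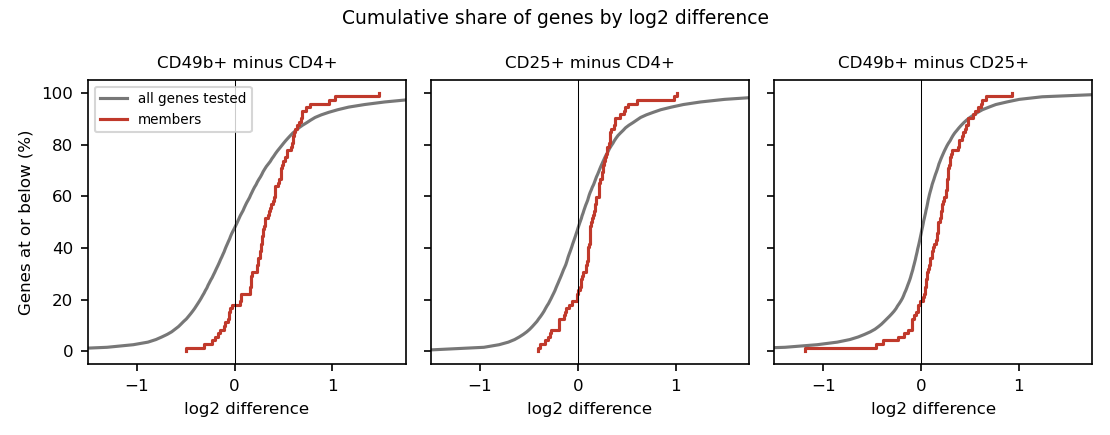
Cumulative share of genes (percent) at or below each log2 difference, for the 72 tested members (red steps) and all 11037 genes tested (grey line), in 3 comparisons. The members' curves lie to the right of the grey line around 0, with medians of 0.31, 0.14 and 0.19.

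In CD25+ cells against CD4+ cells of injected mice, 14 of 72 members were higher and 2 lower. The test called 20.8% of all genes higher and 17.8% lower, so the share of members called higher (19.4%) was near that of genes at large and the share called lower (2.78%) was below it. In either direction 22.2% of members and 38.6% of all genes were called. The median difference was 0.14, against 0.02 for all genes, and 56 of 72 members lay above 0 (52.6% of all genes). With centred arrays 36 were higher and none lower (35.9% and 9.75% of all genes), and with quantile normalization 9 were higher and 4 lower (12.5% and 5.56%, against 19.9% and 15.1% of all genes). Leaving out injected replicate 1 left 6 members higher, 8.33% against 13.9% of all genes. Leaving out CD25+ replicate 1 gave 24, of which 13 were among the 14, or 33.3% against 20.9% of all genes. On which side of genes at large the members lay thus changed with 1 array. Without CD25+ replicate 2 there were 8 members higher (11.1%, against 17.6% of all genes) and 5 lower (17.4% of all genes). With the mean of all probe sets of each gene 7 were higher (9.72%, against 18.7% of all genes) and 8 lower (11.1%, against 19.4%). Without replicate 3 of both subsets 8 were higher (11.1%, against 18.8% of all genes) and 2 lower (2.78%, against 15.2%). This comparison shares its CD4+ arrays with the CD49b+ comparison.

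Mrpl13, Mrpl27, Mrps2 and Mrps6 kept their call as higher in CD25+ cells whichever array was left out. Mrpl27 was 1.01 ± 0.12 higher than in CD4+ cells (adjusted p 0.000157, limma). Mrpl13, a large subunit protein with a bacterial counterpart, was 8.65 and 8.98 in injected CD4+, 9.23, 9.56 and 9.48 in CD25+ and 9.37, 9.42 and 9.39 in CD49b+ arrays, and the subsets lay above the CD4+ arrays. Its difference was 0.61 ± 0.12 in CD25+ and 0.58 ± 0.12 in CD49b+ cells. Mrps2 was 7.01 and 6.99 in injected CD4+ and 7.41, 7.51 and 7.52 in CD25+ arrays, a difference of 0.48 ± 0.09, but a dimmer probe set of Mrps2 was lower by the test in both CD25+ (-0.27 ± 0.08) and CD49b+ cells (-0.24 ± 0.08). Among the called members that had other probe sets, another one was called the same way for 8 of 11 in CD49b+ and for 2 of 9 in CD25+ cells. One was called the opposite way for 1 member in CD49b+ (Mrps2) and for 3 in CD25+ cells (Mrpl19, Mrpl38 and Mrps2).

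The other calls in CD25+ cells were less steady. Mrpl41 (0.51 ± 0.11), Mrpl52 (0.47 ± 0.12), Mrps17 (0.38 ± 0.09) and Mrpl39 (0.38 ± 0.10) lost theirs without 1 or both of the CD4+ arrays of injected mice, each left out in turn. The values were 0.0519 for Mrpl41 without injected replicate 2, 0.0974 for Mrpl52 and 0.0527 for Mrps17 without injected replicate 1, and 0.0634 and 0.0781 for Mrpl39 without injected replicate 1 and 2, all as adjusted p in limma. Mrps11 (0.43 ± 0.15, adjusted p 0.0449) lost its call on leaving out any of 8 arrays, with an adjusted p of up to 0.286. Mrps27 (-0.39 ± 0.09) and Mrpl58 (-0.41 ± 0.12), the latter a peptidyl-tRNA hydrolase built into the large subunit, were lower. Without injected replicate 2 their adjusted p in limma was 0.0728 and 0.185, and without CD25+ replicate 1 that of Mrpl58 was 0.057. With centred arrays neither was called (0.0689 and 0.104).

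Between the sorted subsets, which share no arrays, 19 of 72 members were higher in CD49b+ than in CD25+ cells and 3 lower, against 17.5% and 12.4% of all genes. The members' shares were 26.4% and 4.17%, and in either direction 30.6% against 29.9%. By unadjusted p, 40.3% of members and 40.2% of all genes lay under 0.05. The median difference was 0.19, against 0.03 for all genes, and 58 of 72 lay above 0 (55.1% of all genes). The CD49b+ arrays lay all above the CD25+ arrays for 28 members (24.3% of all genes) and all below for 4 (17.3%). Without CD49b+ replicate 2 there were 9 members higher (12.5%, against 14.9% of all genes) and without CD25+ replicate 1 there were 10 (13.9%, against 12.6%), each among the 19. On leaving out either array, members were thus not called higher clearly more often than genes at large. Without replicate 3 of both there were 11 higher (15.3%, against 12.5% of all genes) and 2 lower. Centring gave 21 higher and 3 lower (29.2% and 4.17%, against 20.1% and 11.2% of all genes). With the replicate block 25 were higher (34.7%, against 21.3% of all genes) and 4 lower, all 22 members called without it among them.

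Mrpl33 was 0.93 ± 0.09 higher in CD49b+ than in CD25+ cells (adjusted p 4.04e-05, limma), the largest such difference. Mrps23, a small subunit protein found only in mitochondria, was 8.27, 8.54 and 8.31 in CD49b+, 7.42, 8.04 and 7.63 in CD25+ and 7.88 and 8.06 in injected CD4+ arrays. Its difference between the subsets was 0.67 ± 0.15, while against CD4+ cells it was 0.40 in CD49b+ and -0.27 in CD25+ cells with neither called. Mrpl57, a large subunit protein found only in mitochondria, was 9.92, 10.09 and 9.87 in CD49b+ and 9.10, 9.47 and 9.40 in CD25+ arrays, which did not overlap, a difference of 0.63 ± 0.12. These 3 members, with Mrpl20, Mrpl27, Mrpl36, Mrps21 and Mrps24, kept the call whichever array was left out. Mrps5, a protein of the messenger RNA entry site, was higher by 0.48 ± 0.15, and its adjusted p rose to 0.119 at most in limma when an array was left out.

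**Figure D5:**
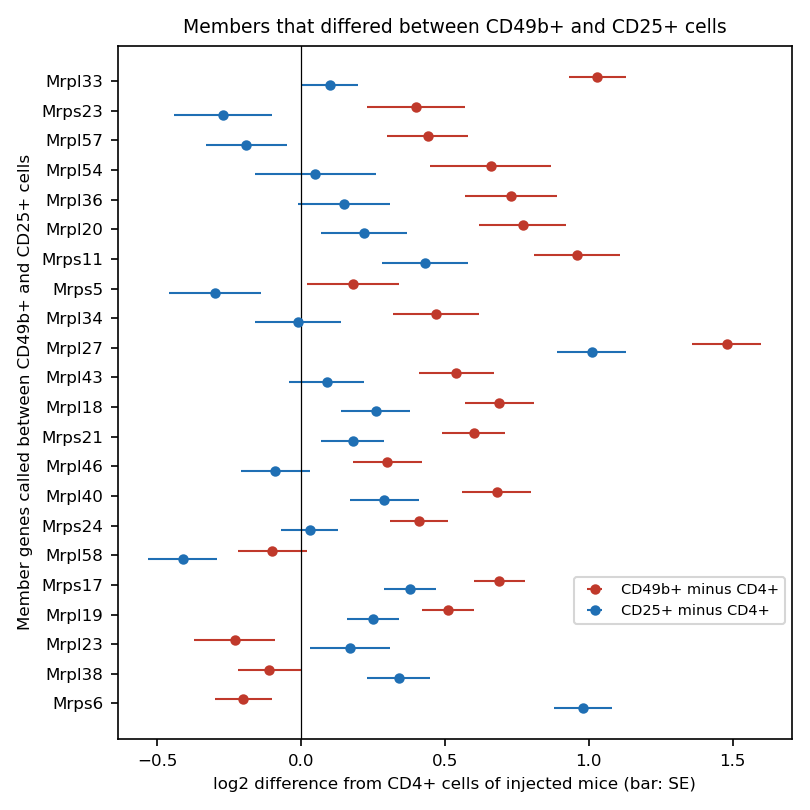
Log2 difference from CD4+ cells of injected mice, with its SE, for CD49b+ (red) and CD25+ (blue) cells, for the 22 members called between the 2 subsets, ordered by the difference between them. Both series share the CD4+ arrays. Red lies right of blue for 19 members and left of it for Mrpl23, Mrpl38 and Mrps6.

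The members lower in CD49b+ than in CD25+ cells were Mrps6, Mrpl38 and Mrpl23. Mrps6, a small subunit protein that stands at the platform, was 6.70, 6.78 and 6.49 in CD49b+, 7.75, 7.95 and 7.82 in CD25+, 6.90 and 6.82 in injected CD4+ and 6.88 and 6.82 in naive arrays. The CD25+ arrays stood above all 7 others and the CD49b+ arrays below all others. Its difference was -1.19 ± 0.09 between CD49b+ and CD25+ cells (adjusted p 1.28e-05, limma), 0.98 ± 0.10 in CD25+ against CD4+ cells (adjusted p 7.98e-05) and -0.20 ± 0.10 in CD49b+ against CD4+ cells (adjusted p 0.117, not called). With centred arrays the last was -0.01 and the CD49b+ arrays overlapped the CD4+ arrays. Mrpl38 was 5.51, 5.57 and 5.47 in CD49b+ and 6.0, 6.14 and 5.80 in CD25+ arrays, a difference of -0.46 ± 0.10. Both calls between the subsets held with each array left out. In CD25+ against CD4+ cells the Mrpl38 probe set used differed by 0.34 ± 0.11, while its dimmer probe sets differed by -0.84 ± 0.10 and -0.50 ± 0.09 and were called lower, as they were in CD49b+ cells (-0.99 ± 0.10 and -0.62 ± 0.09). Between the subsets these gave -0.15 ± 0.09 and -0.12 ± 0.08, neither called. The CD25+ call of the probe set used was lost on leaving out any of 6 arrays, with an adjusted p of up to 0.234 in limma. In the reference annotation (GRCm38.p6) Mrps6 spans chr16:92058336-92112227 and overlaps Slc5a3, a myo-inositol transporter gene at chr16:92058322-92087473. Slc5a3 was dim and not tested, and whether its transcripts add to the Mrps6 signal was not tested. The call of Mrpl23, a protein at the tunnel exit, at -0.39 ± 0.12 was lost on leaving out any of 7 arrays, with an adjusted p of up to 0.109 in limma.

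Over all 3 comparisons within injected mice, Mrpl19, Mrpl27, Mrps11 and Mrps17 were called higher in both subsets and higher in CD49b+ than in CD25+ cells, although a dimmer probe set of Mrpl19 was lower in CD25+ cells (-0.44 ± 0.12). Another 11 members, Mrpl18, Mrpl20, Mrpl33, Mrpl34, Mrpl36, Mrpl40, Mrpl43, Mrpl54, Mrpl57, Mrps21 and Mrps24, were called in CD49b+ against both CD4+ and CD25+ cells and not in CD25+ cells. Another 14 were called only in CD49b+ against CD4+ cells, Mrps12 of the decoding centre (0.54 ± 0.12) among them. Another 5, with Mrpl10 of the stalk base, Mrpl41 and Mrps31, were higher in both subsets with no call between them. In none of the 3 comparisons were 26 members called. The CD25+ calls of Mrpl19 and Mrpl10 were each lost on leaving out any of 8 arrays and that of Mrps31 on any of 3, with adjusted p of up to 0.252, 0.296 and 0.178 in limma. Without injected replicate 1, Mrpl34 (adjusted p 0.2) and Mrpl57 (0.191, limma) were not called in CD49b+ against CD4+ cells. Between the subsets the calls of Mrpl54 and Mrpl19 were lost on leaving out any of 6 arrays (adjusted p up to 0.131 and 0.0985) and that of Mrps17 on any of 3 (up to 0.0616, limma). These comparisons share arrays, so the counts are not independent.

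Of the members with CCGGAAG in the promoter window, 14 of 23 tested were higher in CD49b+ against CD4+ cells (median 0.44), and of those without it 17 of 41 (median 0.28). In CD49b+ against CD25+ cells 9 of 23 with it and 8 of 41 without it were higher. In CD25+ against CD4+ cells 3 of 23 with it were higher and 2 lower, and 8 of 41 without it were higher and 0 lower. CCAAT, about as frequent in members as in all genes, gave a similar gap in CD49b+ against CD4+ cells. There 16 of 27 with it (median 0.39) and 15 of 37 without it (median 0.30) were higher. In CD49b+ against CD25+ cells these were 5 of 27 and 12 of 37. Whether any element goes with the calls was not tested. With AAGATGGC, 8 of 12 were higher in CD49b+ against CD4+ cells and 23 of 52 without it, and with GCGCATGC 2 of 7 and 29 of 57 without it. Of the factor genes, Gabpa was higher in CD49b+ against CD4+ cells (0.38 ± 0.11) and Nrf1 lower (-0.42 ± 0.15). The Gabpa call was lost without injected replicate 2 (adjusted p 0.163, limma), CD49b+ replicate 1 (0.0558) or CD49b+ replicate 3 (0.0517) and under quantile normalization (0.0902), and that of Nrf1 was lost without either naive array (0.0517), injected replicate 1 (0.106) or injected replicate 2 (0.138) or CD49b+ replicate 2 (0.0709) or 3 (0.0514), and with centred arrays (0.224).

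A start of another gene within 1000 bases on the opposite strand was found for 24 of 65 members (36.9%) and for 12.2% of all genes. Of the 16 such pairs tested in CD49b+ against CD4+ cells, 2 were higher on both sides, Mrpl18 with Tcp1 (0.29 ± 0.10) and Mrpl27 with Eme1 (0.40 ± 0.13). Each neighbour's call was lost on leaving out either injected CD4+ array or either of 2 CD49b+ arrays, with an adjusted p of up to 0.158 for Tcp1 and 0.104 for Eme1 in limma. In 2 pairs the partners were called in opposite directions. Mrpl43, a large subunit protein found only in mitochondria, was higher by 0.54 ± 0.13, while its neighbour Twnk, the mitochondrial DNA helicase, was lower by the test at -0.58 ± 0.08 (adjusted p 0.000315, limma). Mrps7 was higher by 0.31 and its neighbour Gga3 lower at -0.43 ± 0.12, but Mrps7 lost its call without injected replicate 1 (adjusted p 0.258) or any CD49b+ array (up to 0.0679, limma), and without injected replicate 2 that of Gga3 was 0.0823 in limma. Mrps11 and Mrpl46, which share such a start region, were both higher in CD49b+ than in CD25+ cells, at 0.53 ± 0.13 and 0.39 ± 0.11, the call of Mrps11 lost on leaving out 1 array (adjusted p 0.051) and that of Mrpl46 on any of 4 (up to 0.0954, limma).

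Genes of the same pathway were summarised as lists. Of the 4 tested ribosomal proteins listed under other names, Dap3, Ptcd3, Chchd1 and Gadd45gip1, only Gadd45gip1 was higher in CD49b+ cells (0.59 ± 0.17), a call that was lost without injected replicate 1 (0.35, adjusted p 0.175, limma). Dap3 differed by 0.16 ± 0.08, Chchd1 by 0.14 ± 0.12 and Ptcd3 by -0.08 ± 0.09. Of 9 translation factors, 4 were higher and 1 lower in CD49b+ against CD4+ cells, 1 higher and none lower in CD25+ against CD4+ cells. The elongation factor genes Gfm1 (0.68 ± 0.13) and Tsfm (0.58 ± 0.09) were higher, and Metap1d, which removes the first methionine, was lower at -0.63 ± 0.16. Without injected replicate 2 the adjusted p of Metap1d was 0.0627.

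Among 22 tested assembly and ribosomal RNA modification factors, 9 were higher and 3 lower in CD49b+, and 3 higher and 3 lower in CD25+ cells against CD4+ cells. Rbfa, which binds the small subunit during assembly, was higher in CD49b+ (0.60 ± 0.10) and lower in CD25+ cells (-0.33 ± 0.10), with a difference of 0.93 ± 0.09 between them (adjusted p 4.52e-05, limma). The CD25+ call of Rbfa was lost without either injected CD4+ array (adjusted p 0.0602 and 0.146), without CD25+ replicate 1 (0.0664) or 3 (0.0635) and with centred arrays (0.188, limma). Tfb1m, which dimethylates small subunit ribosomal RNA, was higher in both, by 0.62 ± 0.08 in CD25+ and by 0.31 ± 0.08 in CD49b+ cells, the second lost without injected replicate 1 (adjusted p 0.0849, limma). Of 17 aminoacyl-tRNA synthetase genes 6 were higher and 1 lower in CD49b+ and 3 and 3 in CD25+ cells, and of 15 import genes 5 and 1 in CD49b+ and 2 and 0 in CD25+ cells, Timm50 (0.86 ± 0.11 in CD49b+ cells) among the higher ones. In CD49b+ cells these splits became 13 and 0, 7 and 1, and 8 and 0 with centred arrays, and 8 and 2, 5 and 2, and 2 and 2 with quantile normalization. In CD25+ cells centring gave 9 and 1, 8 and 0, and 5 and 0.

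The genes for maintenance and transcription of mitochondrial DNA did not follow the ribosomal proteins. In CD49b+ against CD4+ cells none of 14 was higher and 5 were lower, with a median difference of -0.20. The lower ones were Tfb2m (-0.59 ± 0.15), Twnk, Mgme1 (-0.37 ± 0.09), Tefm (-0.36 ± 0.12) and Polg (-0.34 ± 0.10), the last being the mitochondrial DNA polymerase. Without injected replicate 1 the calls of Mgme1 (adjusted p 0.0636), Tefm (0.242) and Polg (0.0848, limma) were lost, and those of Tefm and Polg also without 1 of 2 other arrays each. In CD25+ cells none was higher and 2 were lower. With centred arrays the CD49b+ median was -0.01, with 2 genes higher and 2 lower, where centring adds nearly the same amount to every gene of a comparison (44.4% of all genes were then higher and 12.3% lower). With quantile normalization the median was -0.22, with none higher and 5 lower, and the members' median was 0.21. Between the subsets 4 of the 14 were lower in CD49b+ than in CD25+ cells and none higher, with and without centring. Among 9 transcriptional regulators of mitochondrial genes 2 were higher and 4 lower in CD49b+ against CD4+ cells (4 and 2 with centred arrays, which raise all genes). Ppargc1b (-0.84 ± 0.11) and Myc (-0.74 ± 0.18) were lower and Esrra higher (0.47 ± 0.10) in CD49b+ cells. Without injected replicate 2 the adjusted p of Myc was 0.0527 in limma.

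The cell cycle list, whose genes mark dividing cells, differed in the same groups by much more. In CD49b+ cells 18 of 19 and in CD25+ cells 19 of 19 tested genes were higher than in CD4+ cells, with median differences of 2.85 and 1.80, and 8 of 19 were higher in CD49b+ than in CD25+ cells (median 0.85). Mki67 was higher by 4.19 ± 0.26 in CD49b+ and by 3.19 ± 0.26 in CD25+ cells. The mean of the list lay at 6.26 to 6.97 in CD4+, 8.59 to 9.2 in CD49b+ and 7.79 to 8.6 in CD25+ arrays. Markers of natural killer cells were higher in CD49b+ cells for 4 of 7 tested genes and lower for 2, Gzma (3.97 ± 0.26) and Nkg7 (2.78 ± 0.39) among the higher ones and Prf1 (-1.10 ± 0.11) and Eomes (-0.91 ± 0.10) the lower ones. The mean of the list was 5.43 to 5.69 in CD49b+, 4.76 to 5.08 in CD25+ and 4.97 to 5.15 in CD4+ arrays, while Klra1 and Klra8 lay under the array median on all arrays. B cell markers lay at a mean of 4.4 to 4.72 on all arrays, with Cr2, Fcer2a, Ighm, Ms4a1 and Pax5 under the array median throughout. Of the 4 tested, Cd79b was higher in CD49b+ (0.96 ± 0.14) and CD25+ cells (1.53 ± 0.14), and Cd22 was lower in CD49b+ cells (-0.65 ± 0.13). The mean of myeloid and dendritic cell markers was 5.85 to 6.05 in naive and 5.31 to 5.42 in injected CD4+ arrays. It was 4.84 to 5.03 in CD49b+ and 5.15 to 5.37 in CD25+ arrays, the latter overlapping the injected CD4+ arrays. Of 9 tested, 1 was higher and 6 lower in CD49b+, and 3 higher and 4 lower in CD25+ cells. In CD25+ cells Fcer1g was higher by 1.90 ± 0.28, while Tyrobp, Itgax and Flt3 were lower. In CD4+ cells of injected against naive mice 3 of the 9 were lower, Itgax, Cybb and Adgre1, and 0 higher (1.36% of all genes lower). The calls of Cybb and Adgre1 there were lost on leaving out any of 2 and 5 arrays. The part of dividing cells or of other cells in the members' differences was not tested.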

How the data were processed

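The data used were the log2 values deposited for 45141 probe sets (10 arrays). Per the submitters' processing notes, the authors used GCRMA and Affymetrix Expression Console 1.2.1, with no order or settings given, and joint normalization of the arrays is neither stated nor denied there. Spleen CD4+ cells from pools of mice were enriched with beads, stained and sorted, and 100 ng RNA was labelled, per the labels. No depth applies, and the number of arrays limits the precision. Of the probe sets, 28898 had 1 symbol. Each gene kept its probe set with the highest mean. Of 17097 genes, 11037 were tested, with limma 3.58.1 in R 4.3.3 (lmFit and eBayes over 4 groups, 6 residual degrees of freedom, two-sided, Benjamini-Hochberg within each of 4 comparisons). The script was tested on simulated data. Replicate numbers come from the labels. Deviations from the group means correlated at 0.16 to 0.64 in the 3 same-number pairs of CD49b+ and CD25+ arrays, so the numbers may pair those groups. CD49b+ replicate 1 correlated at 0.13 with CD25+ replicate 2 as well. In the other 10 same-number pairs, 2 for each other comparison, the correlations were -0.21 to 0.53. Deviations within a group sum to 0 and the pairs are few, so these values cannot settle whether arrays are paired. The main fit uses no pairing.

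Genes named were up to 10 called members with the highest and lowest difference in each comparison and members called between the subsets. Uncalled members of each subunit with the smallest difference in CD49b+ against CD4+ cells were named too. Up to 4 called genes of each other list and fixed names were added. Members and lists were chosen with earlier results of these data known. The motif and neighbour genes (Gabpa, Nrf1, Tcp1, Eme1, Gga3), Mrpl10, Mrpl19, Mrpl43, Mrpl46, Mrps7, Mrps12 and Mrps31 were named after their values were seen. Promoter windows came from RefSeq (GRCm38.p6). The alternatives were other filters, quantile normalization, centring on array medians, averaged or separate probe sets, array weights, a 2-fold threshold, the replicate block, only the arrays compared, and leaving out arrays. After the values were seen, the fit of every probe set and that without replicate 3 of both subsets were added.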

Additional observations from a re-analysis of the deposited data

Results flagged for a closer look

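Mrps6, a small subunit protein, was singled out because its arrays moved in opposite directions in the sorted subsets relative to CD4+ cells of injected mice, with a test of the difference between the subsets. The CD49b+ arrays (6.70, 6.78 and 6.49) lay below and the CD25+ arrays (7.75, 7.95 and 7.82) above the CD4+ arrays (6.90 and 6.82). The difference between CD49b+ and CD25+ cells was -1.19 with an adjusted p of 1.28e-05 in limma. It held with each array left out, with a highest adjusted p of 9.55e-05 in limma. On the CD49b+ side the difference from CD4+ cells was -0.20 and was not called (adjusted p 0.117, limma). With centred arrays it was -0.01 (adjusted p 0.924), and the CD49b+ arrays (6.79, 6.86 and 6.57) overlapped the CD4+ arrays (6.80 and 6.71), so the opposite directions depend on the scaling. On the deposited scale this was the 1 member of 72 with such a pattern, and its cause was not tested. The share of all genes tested with this pattern is not given here, so the count alone does not make Mrps6 unusual.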

How the results depend on the processing

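The median difference of the members kept its sign under the alternatives run in all 4 comparisons (centring, which raises all genes in the sorted subsets, could not have turned it there), while counts of called members moved. The stricter filter left 1 member lower in each subset when set against CD4+ cells (1 in CD49b+, 1 in CD25+). That was 1.43% of members in each, against 16.3% and 9.28% of all genes. Quantile normalization gave 9 higher and 4 lower in CD25+ cells. Centred arrays gave 54 higher and 0 lower in CD49b+ cells (median 0.50) and 36 higher and 0 lower in CD25+ cells (median 0.30). The mean of the probe sets gave 7 lower in CD49b+, and 7 higher and 8 lower in CD25+ cells, with Mrps11 at -0.02 and Mrpl38 at -0.34 turned in sign. Every probe set fitted on its own, an alternative chosen after seeing the data, gave 7 lower in CD49b+ and 9 lower in CD25+ cells. Its unit is the probe set, of which the members have 129, not all of them tested. These 7 and 9 are thus not comparable with counts of genes, and the share of all probe sets is not given here. A 2-fold threshold left 2 higher and 0 lower in CD49b+ cells, 1 and 0 in CD25+ cells, and 0 higher and 1 lower between the subsets. Members were then called higher less often than genes at large. The shares were 2.78% against 7.05% of all genes in CD49b+ cells, 1.39% against 5.08% in CD25+ cells and 0% against 2.51% between the subsets. For lower calls they were 0% against 2.61%, 0% against 1.36% and 1.39% against 2.58%. Only the arrays compared left 8 higher and 1 lower in CD25+ cells (11.1% and 1.39%, against 16.7% and 13.4% of all genes). Array weights called 3 members lower in injected against naive CD4+ cells (4.17%, against 2.74% of all genes). Without replicate 3 of both subsets, also chosen after seeing the data, 1 was lower in CD49b+ cells, 8 were higher in CD25+ cells and 11 higher in CD49b+ than in CD25+ cells. The cause of these moves was not tested.

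Leaving out 1 array at a time gave 0 to 1 member lower in injected against naive mice (0.145% to 1.32% of all genes). In CD49b+ cells 19 to 40 were higher and 0 to 2 lower (22.6% to 30.4% and 16.7% to 23.9% of all genes). In CD25+ cells 6 to 24 were higher and 0 to 5 lower (13.9% to 20.9% and 11.3% to 17.5% of all genes), with a median of 0.07 to 0.27. Between the subsets 9 to 25 were higher in CD49b+ than in CD25+ cells (12.6% to 17.3% of all genes). The lowest counts higher were 26.4%, 8.33% and 12.5% of members, against 22.6%, 13.9% and 14.9% of all genes in the same fits. With the replicate block 1 member was higher (1.39%, against 0.516% of all genes) and 1 lower (1.39%, against 2.9%) in injected against naive mice. Against CD4+ cells 41 were higher in CD49b+ cells (56.9%, against 32% of all genes) and 19 in CD25+ cells (26.4%, near the 24% of all genes). In CD49b+ against CD25+ cells 25 were higher (34.7%, against 21.3% of all genes) and 4 lower (5.56%, against 15.2%). Between the subsets, whose numbers may pair the arrays, the block ended no member's call. With 2 or 3 arrays a group, small differences were not detectable.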
